A study of Homo sapiens with 10 samples.

Results

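TPM1, TPM2, TPM3, TPM4, TAGLN, TAGLN2, CNN2, CNN3, MYL9 and ACTN1 encode the tropomyosins, 2 transgelins, 2 calponins, a regulatory light chain of myosin II and an alpha-actinin, proteins that bind or pull on actin filaments. The 10 genes were picked by symbol from a table of 58222 genes, and all 10 were among the 15167 genes that reached at least 1 TPM in at least 2 libraries and were tested. As a unit, TPM is the share of a transcript among all transcripts of a library, corrected for transcript length and scaled to a fixed total, while TPM1 to TPM4 as gene symbols mean tropomyosin. RNA came from OVCAR-3, an established human line derived from an ovarian adenocarcinoma, in 10 libraries, 2 replicates for each of 5 groups. Treated cells had outlived 24 hours of cisplatin at 0.5 uM, a platinum drug that binds DNA, and had recovered for 2 weeks. Extracted cells had outlived 3 days inside silica gel and had then spent 2 weeks back in standard culture. Day3 and Day1 cells were taken after 3 days and after 24 hours of immobilization in that gel, and Control cells grew in standard culture throughout. The labels name the same line, medium and serum for all groups and no genetic change in any of them. Treated and Extracted cells are survivors, so that loss of some cells and change within the rest cannot be told apart, and the labels do not give the time in culture of Control cells.

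Tropomyosins are coiled-coil dimers that lie end to end along the actin filament and set which myosins and severing proteins reach it. Each of the 4 genes makes several isoforms by alternative promoters and exons, and values per gene add these together. TAGLN (also called SM22) is a marker of smooth muscle, while its relative TAGLN2 is made in many epithelial and blood cells. Calponins bind actin, tropomyosin and calmodulin, with CNN1 typical of smooth muscle and CNN2 and CNN3 present in non-muscle cells. MYL9 is a light chain whose phosphorylation by myosin light chain kinase switches on myosin II, and ACTN1 cross-links filaments and ties them to focal adhesions. Many genes of this kind are targets of SRF, a transcription factor that with its MRTF co-activators follows the pool of unpolymerized actin and binds the CArG box.

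Several properties of the whole libraries moved with the groups, and their part in the results below was not tested. Genes of the mitochondrial genome held 10.7% to 11.2% of the TPM in Treated libraries, 10.9% to 11.3% in Extracted, 6.13% to 7.79% in Day3, 2.37% to 4.02% in Day1 and 16.1% to 17.0% in Control libraries. Small-RNA genes held 14.4% of the TPM of Treated replicate 2, 2.96% of Extracted replicate 1 and at most 1.16% of any other library. The median log2 fold change over all tested genes against Control was 0.12 for Day1, 0.06 for Day3, -0.02 for Extracted and -0.15 for Treated cells. With mitochondrial and small-RNA genes removed it was -0.06 for Day1, -0.06 for Day3, -0.08 for Extracted and -0.12 for Treated cells. The table gives no read counts, so depth is unknown. All 9 genes of an epithelial list were tested, and EPCAM ranged from 310.5 to 476 TPM. Of 10 smooth-muscle genes, 4 reached the filter: CALD1 at 79.0 to 201 TPM, SMTN at 4.71 to 10.7 TPM, ACTA2 at 0.64 to 4.17 TPM and CNN1 at no more than 1.28 TPM. The defining smooth-muscle genes MYH11 and MYOCD stayed at or under 0.21 TPM in every library, and both were listed at 0 in both Control libraries. Of 9 striated-muscle markers TNNT1 was the 1 tested, at 128 to 197 TPM, and 2, MYH7 and MYL2, were listed at 0 in every library. The fibroblast markers COL1A1 and COL1A2 were the 2 of 8 that were tested, with COL1A1 at 6.66 to 14.5 TPM and DCN at no more than 0.36 TPM.

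The 10 genes spanned a wide range of levels. Per length, TPM3, TPM4 and TAGLN2 were the most abundant, each between 354 and 852 TPM in every library. TPM1 and CNN3 lay between 146 and 327 TPM, and CNN2 and ACTN1 between 93.7 and 180.2 TPM. MYL9 lay between 18.7 and 54.5 TPM, and TPM2 and TAGLN were the scarce members, never above 23.0 and 13.0 TPM. The ratio of the highest to the lowest group mean was 14.6 for TPM2, 6.71 for TAGLN and 2.53 for MYL9, and between 1.13 for TPM3 and 1.95 for TAGLN2 for the other 7 genes. The summed TPM of the 10 genes was 2109 and 1766 in Treated, 2369 and 2567 in Extracted, 2215 and 2164 in Day3, 2416 and 2456 in Day1 and 2507 and 2348 in Control libraries.

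**Figure D1:**
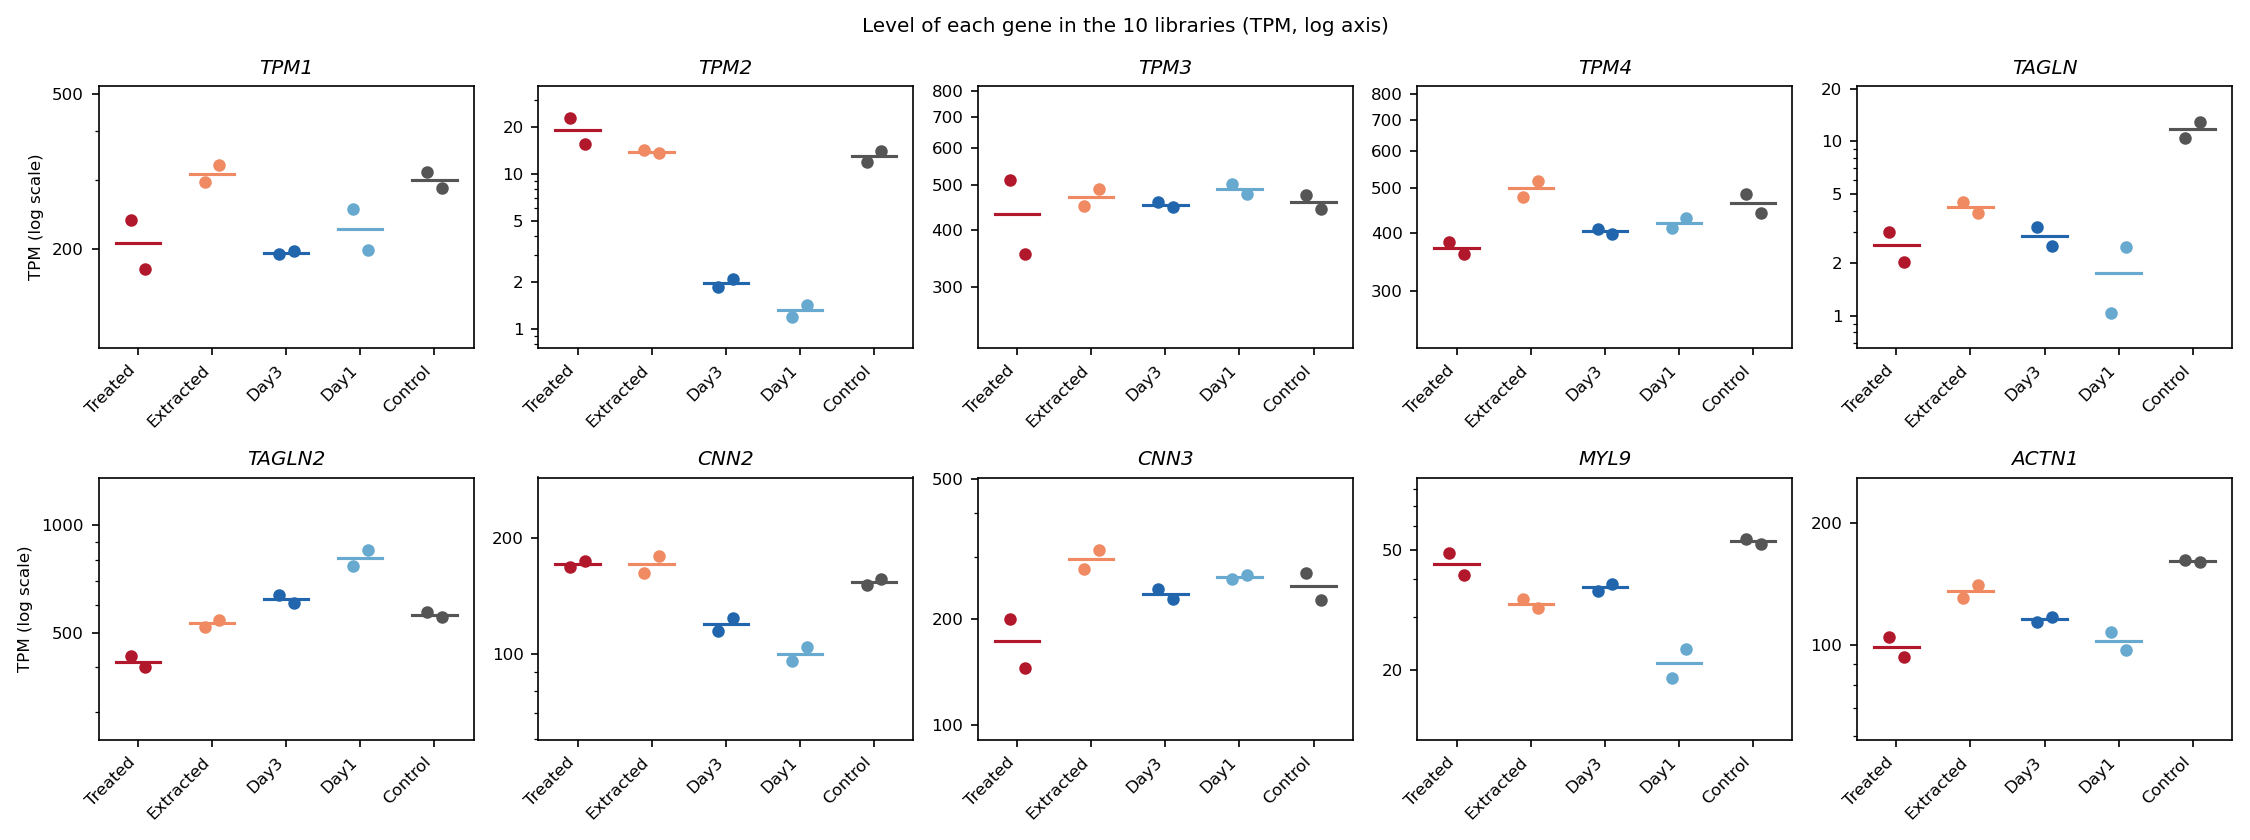
Level of each of the 10 genes in the 10 libraries, in TPM on a log axis; points are libraries and bars are group means (n = 2). TPM2 sits near 1 to 2 TPM in both gel groups and at 12.0 to 23.0 TPM elsewhere, and TAGLN is highest in the Control libraries.

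TPM2, the gene of beta-tropomyosin, which is abundant in skeletal and smooth muscle, was the member with the largest range. It had 23.0 and 15.6 TPM in Treated cells, 14.3 and 13.5 TPM in Extracted cells, 1.88 and 2.11 TPM in Day3 cells, 1.21 and 1.44 TPM in Day1 cells, and 12.0 and 14.0 TPM in Control cells. The 4 gel libraries all lay far below the 6 others, the Treated libraries were the highest, and Extracted and Control libraries overlapped. Against Control, the log2 fold change was -2.59 on Day1 (SE 0.179, limma adjusted p = 7.78e-05), a ratio of means of 9.83-fold lower. On Day3 it was -2.22 (SE 0.179, adjusted p = 0.000263), 6.52-fold lower. Because fold changes are taken on log2(TPM + 1), they understate the ratio for a gene this low. The increase on Day3 over Day1 (0.37, SE 0.179) did not pass the test (adjusted p = 0.327). After release and recovery TPM2 was 6.98-fold higher in Extracted than in Day3 cells (log2 fold change 2.32, SE 0.179, adjusted p = 0.000119), and its difference from Control was then 0.09 with a 95% interval of -0.30 to 0.49. In Treated cells the difference from Control was 0.51 (95% interval 0.12 to 0.91, adjusted p = 0.0615), which did not pass. It was called when libraries were rescaled by the median of ratios (0.68, adjusted p = 0.00997) or by removal of mitochondrial and small-RNA genes (0.55, adjusted p = 0.0218). It was 0.78 and called without Treated replicate 2, and 0.25 and not called without Treated replicate 1. In a bulk library fewer cells that make a transcript and less of it per cell cannot be told apart.

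TPM1, the gene of alpha-tropomyosin, a component of muscle thin filaments and of stress fibres, fell in Day3 and Treated cells by smaller steps. It had 236 and 177 TPM in Treated, 296 and 327 TPM in Extracted, 194 and 197 TPM in Day3, 252 and 198 TPM in Day1 and 314 and 286 TPM in Control libraries. Both Treated, both Day3 and both Day1 libraries lay below both Control libraries, while Extracted and Control libraries overlapped. TPM1 fell by 0.62 on Day3 (SE 0.150, adjusted p = 0.0320) and by 0.55 in Treated cells (SE 0.150, adjusted p = 0.0259) on the log2 scale. On Day1 the difference was -0.42 (SE 0.150, adjusted p = 0.0727), which did not pass, with the replicates at 252 and 198 TPM on either side of their mean of 225 TPM. It was called under the median of ratios (-0.57, adjusted p = 0.00675), with mitochondrial and small-RNA genes removed (-0.63, adjusted p = 0.00431) and without either Treated library, and it was -0.25 without Day1 replicate 2 and -0.59 without Day1 replicate 1, neither called. TPM1 was higher in Extracted than in Day3 cells by 0.67 (adjusted p = 0.0140) and lower in Treated than in Extracted cells by -0.60 (adjusted p = 0.0316).

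TPM3 and TPM4 make most of the tropomyosin of non-muscle cells, and they were the steadiest members. TPM3 had 512 and 354 TPM in Treated, 450.1 and 490.3 TPM in Extracted, 459 and 448 TPM in Day3, 503 and 478 TPM in Day1 and 474 and 444 TPM in Control libraries. It passed no comparison in the fit of all 10 libraries, and the 2 Treated libraries enclosed the values of every Extracted, Day3, Day1 and Control library. Without Treated replicate 1 the TPM3 difference of Treated cells was -0.37 from Control and -0.41 from Extracted cells. Without Treated replicate 2 it was 0.16 and 0.12. TPM4 had 383 and 361 TPM in Treated, 479 and 519 TPM in Extracted, 408 and 398 TPM in Day3, 409.8 and 432 TPM in Day1 and 485 and 441 TPM in Control libraries. The Treated libraries were the lowest for TPM4 and the difference from Control, -0.32 (SE 0.0887, adjusted p = 0.0283), passed, but not when libraries were rescaled by the median of ratios (-0.14). TPM4 was also lower in Treated than in Extracted cells (-0.42, adjusted p = 0.0185), a call likewise lost under that rescaling (-0.25), and higher in Extracted than in Day3 cells (0.31, adjusted p = 0.0402). Its differences from Control of -0.14 on Day1 and -0.20 on Day3 did not pass. With mitochondrial and small-RNA genes removed both were called, at -0.34 (adjusted p = 0.0131) on Day1 and -0.34 (adjusted p = 0.0195) on Day3, and the Day1 difference was also called under the median of ratios (-0.28).

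Per length, the 4 genes can be added, which gives the tropomyosin makeup of each library without reference to the library total. TPM2 made up 1.99% and 1.72% of the summed tropomyosin TPM in Treated, 1.15% and 1.00% in Extracted, 0.177% and 0.202% in Day3, 0.104% and 0.130% in Day1 and 0.933% and 1.18% in Control libraries. TPM1 made up 20.5% and 19.5% in Treated, 23.9% and 24.2% in Extracted, 18.2% and 18.8% in Day3, 21.6% and 17.9% in Day1 and 24.4% and 24.1% in Control libraries. The TPM2 share was therefore low in gel and highest in Treated libraries, and the TPM1 share was below that of Control in all Treated and gel libraries. TPM3 filled 44.3% and 39.0% of the sum in Treated libraries, 36.3% in both Extracted libraries, 42.9% to 43.2% in the 4 gel libraries and 36.9% and 37.5% in Control libraries. TPM4 filled between 33.2% and 39.7% in every library, with no order of the groups. The summed tropomyosin TPM was 1154 and 908 in Treated, 1239 and 1350 in Extracted, 1063 and 1045 in Day3, 1166 and 1109 in Day1 and 1286 and 1185 in Control libraries.

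**Figure D2:**
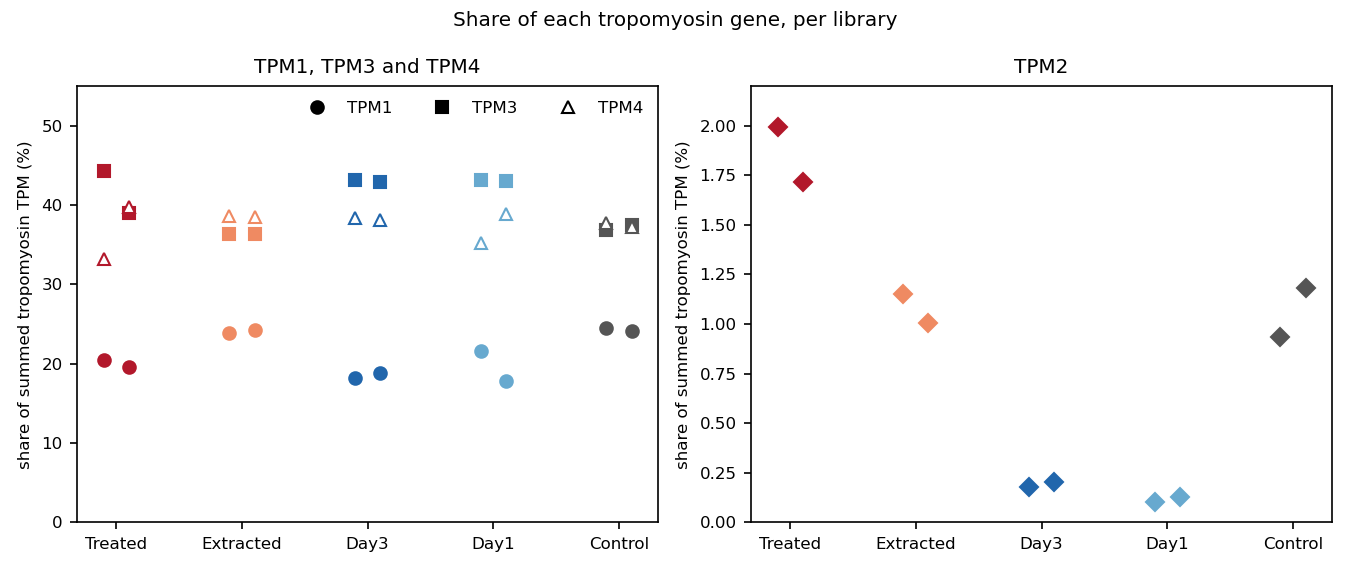
Share of each tropomyosin gene in the summed tropomyosin TPM of each library, in percent; the left panel holds TPM1, TPM3 and TPM4 and the right panel TPM2 on its own axis, with 1 point per library. TPM2 lies at or under 0.202% in all 4 gel libraries and at or above 0.933% in the other 6, and TPM3 lies near 43% in the gel libraries.

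TAGLN, the transgelin of smooth muscle, was below Control in every other group. It had 3.02 and 2.04 TPM in Treated, 4.50 and 3.90 TPM in Extracted, 3.23 and 2.51 TPM in Day3, 1.04 and 2.46 TPM in Day1 and 10.5 and 13.0 TPM in Control libraries. No library of any other group reached even the lower Control value, and Treated libraries overlapped those of Day3 and those of Day1. The log2 fold change against Control was -2.25 on Day1 (SE 0.253, adjusted p = 0.000562) and -1.72 on Day3 (SE 0.253, adjusted p = 0.00472). It was -1.29 in Extracted (SE 0.253, adjusted p = 0.0362) and -1.86 in Treated cells (SE 0.253, adjusted p = 0.00111). The ratios of mean TPM were 6.71-fold lower on Day1, 4.09-fold on Day3, 2.79-fold in Extracted and 4.63-fold in Treated cells. TAGLN was thus the only member called in all 4 comparisons with Control, although it did not pass in any comparison between the handled groups. The protein-coding gene PCSK7 overlaps 446 bases of TAGLN on the opposite strand and ranged from 9.03 to 15.7 TPM. Whether reads were assigned by strand is not given in the sources used here, so reads of the shared bases could belong to either gene.

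TAGLN2, the widely made transgelin, was the most abundant of the 10 genes in gel and moved the other way on Day1. It had 429 and 401 TPM in Treated, 519 and 545 TPM in Extracted, 639 and 607 TPM in Day3, 767 and 852 TPM in Day1 and 572 and 553 TPM in Control libraries. The 5 groups did not overlap, in the ascending order Treated, Extracted, Control, Day3 and Day1. TAGLN2 rose by 0.52 on Day1 (SE 0.0880, adjusted p = 0.00410) and fell by 0.44 in Treated cells (SE 0.0880, adjusted p = 0.00698) against Control on the log2 scale. The fall in Treated cells did not pass after rescaling by the median of ratios (-0.26). The Day3 difference from Control was 0.15 (95% interval -0.05 to 0.34) and the Extracted difference -0.08 (95% interval -0.28 to 0.11), and neither passed. Per length, TAGLN2 exceeded TAGLN 142- and 197-fold in Treated, 115- and 140-fold in Extracted, 198- and 242-fold in Day3, 739- and 346-fold in Day1 and 54.6- and 42.6-fold in Control libraries. The ratio of these relatives was therefore above that of Control in all 8 other libraries, with the Day1 replicates far apart because TAGLN was near 1 TPM in Day1 replicate 1.

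**Figure D3:**
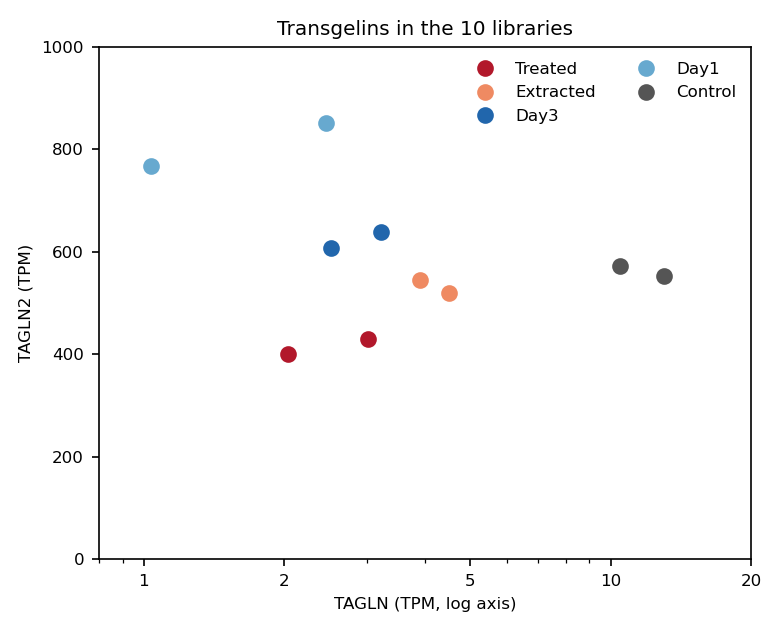
TAGLN on a log axis against TAGLN2 on a linear axis, both in TPM, with 1 point per library coloured by group. The Control libraries stand apart at 10.5 and 13.0 TPM of TAGLN, and the Day1 libraries at 767 and 852 TPM of TAGLN2.

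CNN2, a calponin of non-muscle cells, was low in gel and back at or above the Control level in Extracted cells. It had 168 and 175 TPM in Treated, 163 and 180.2 TPM in Extracted, 115 and 124 TPM in Day3, 95.6 and 104 TPM in Day1 and 152 and 157 TPM in Control libraries. All 4 gel libraries lay below all 6 others, and the Extracted and Treated libraries all lay above Control. CNN2 fell by 0.62 on Day1 (SE 0.0948, adjusted p = 0.00267) and by 0.37 on Day3 (SE 0.0948, adjusted p = 0.0398) against Control on the log2 scale. It was higher in Extracted than in Day3 cells by 0.52 (adjusted p = 0.00567). The differences from Control of 0.15 in Extracted and 0.15 in Treated cells did not pass (adjusted p = 0.443 and 0.267).

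CNN3, the other calponin of non-muscle cells, had a different profile. It had 201 and 146 TPM in Treated, 278 and 315 TPM in Extracted, 244 and 229 TPM in Day3, 260.4 and 267 TPM in Day1 and 270.5 and 227 TPM in Control libraries. Only the Treated libraries lay below every other library, while the Day3 and Day1 libraries all lay between the 2 Control ones. CNN3 fell by 0.53 in Treated cells against Control (SE 0.148, adjusted p = 0.0273), and it was lower in Treated than in Extracted cells by -0.79 (SE 0.148, adjusted p = 0.0127). In gel its differences from Control were 0.09 on Day1 (95% interval -0.24 to 0.42, and -0.06 when rescaled by the median of ratios) and -0.07 on Day3 (95% interval -0.40 to 0.26). Per length, CNN2 stood at 0.837 and 1.20 of CNN3 in Treated, 0.587 and 0.571 in Extracted, 0.470 and 0.543 in Day3, 0.367 and 0.391 in Day1 and 0.560 and 0.689 in Control libraries. The ratio was lowest on Day1 and highest in Treated libraries.

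MYL9, the regulatory light chain, was lowest on Day1. It had 48.7 and 41.2 TPM in Treated, 34.4 and 32.0 TPM in Extracted, 36.6 and 38.5 TPM in Day3, 18.7 and 23.4 TPM in Day1 and 54.5 and 52.3 TPM in Control libraries. The 5 groups did not overlap, and every library outside Control lay below both Control libraries. The log2 fold change against Control was -1.31 on Day1 (SE 0.129, adjusted p = 0.000279), 2.53-fold lower in mean TPM. It was -0.50 on Day3 (SE 0.129, adjusted p = 0.0398) and -0.67 in Extracted cells (SE 0.129, adjusted p = 0.0337). In Treated cells it was -0.25 (95% interval -0.54 to 0.04, adjusted p = 0.187). MYL9 was higher on Day3 than on Day1 by 0.81 (SE 0.129, adjusted p = 0.0158), 1.78-fold in mean TPM, and the difference of Extracted from Day3 cells did not pass (-0.17, 95% interval -0.46 to 0.11).

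ACTN1, a filament cross-linker at stress fibres and adhesions, was below Control in all 8 other libraries. It had 105 and 93.7 TPM in Treated, 131 and 141 TPM in Extracted, 114 and 118 TPM in Day3, 108 and 97.7 TPM in Day1 and 162 and 160.2 TPM in Control libraries. Extracted libraries came closest to Control, and Treated and Day1 libraries overlapped at the low end. ACTN1 fell by 0.65 on Day1 (SE 0.0965, adjusted p = 0.00238), by 0.47 on Day3 (SE 0.0965, adjusted p = 0.0181) and by 0.69 in Treated cells (SE 0.0965, adjusted p = 0.00120) on the log2 scale. In Extracted cells the difference of -0.25 (95% interval -0.46 to -0.03) had an adjusted p of 0.222 and did not pass. ACTN1 was lower in Treated than in Extracted cells by -0.45 (adjusted p = 0.0202).

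**Figure D4:**
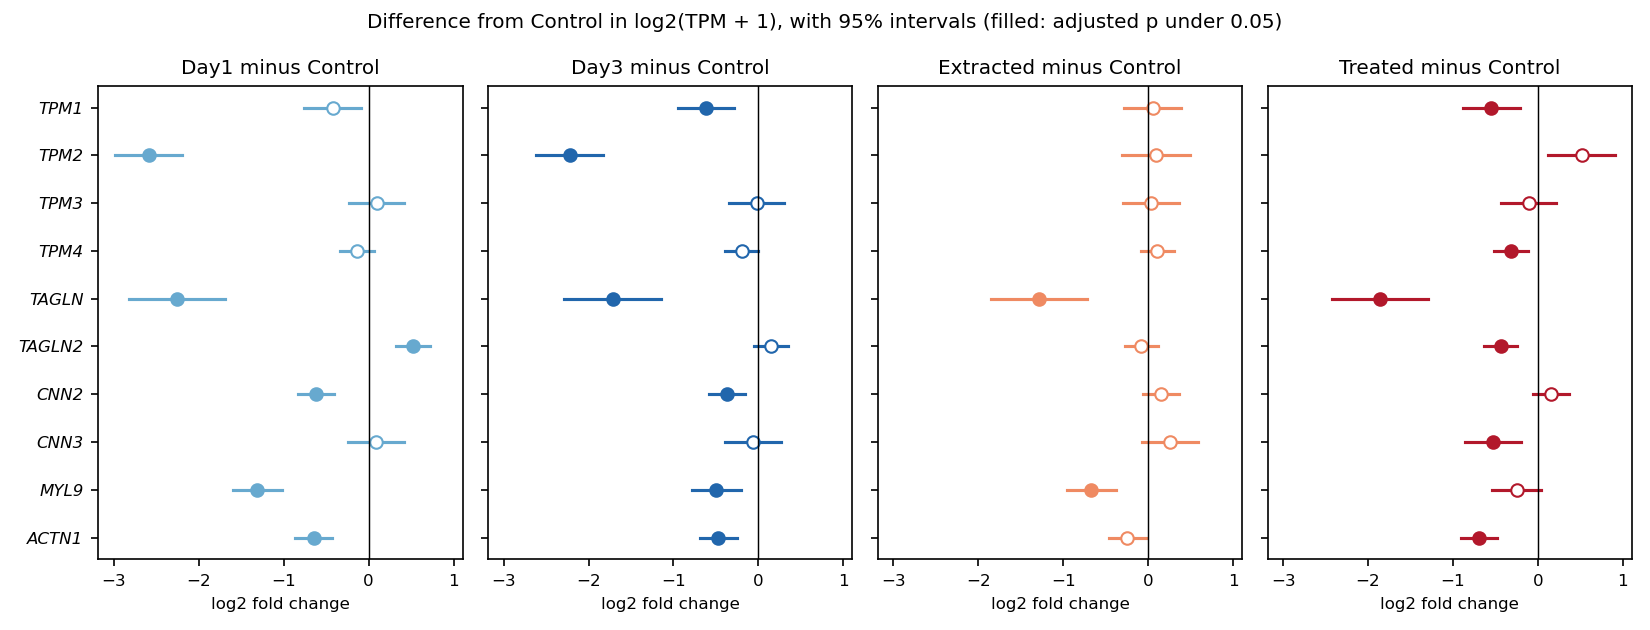
Difference of each of the 10 genes from Control in log2(TPM + 1), with 95% intervals from the limma fit of all 10 libraries; filled points passed at an adjusted p under 0.05 and open points did not. TPM2 and TAGLN lie below -1.5 in both gel groups, TAGLN lies below -1 in all 4 panels, and TPM3 lies near 0 in each.

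Day1 cells were set against Control to see the state of the cells at 24 hours of immobilization. Of the 10 genes, 5 fell (TPM2, TAGLN, MYL9, ACTN1 and CNN2) and TAGLN2 alone rose, where 6.28% of all tested genes were called lower and 14.4% higher, 20.7% in either direction. The median log2 fold change of the 10 genes was -0.52, beside 0.12 over all tested genes. Around them, the actin genes ACTB (-0.53, adjusted p = 0.00657) and ACTG1 (-0.44, adjusted p = 0.0356), which encode the cytoplasmic actins, fell as 2 of the 3 actin genes tested. Of 12 cross-linkers and bundlers, 3 fell, namely SYNPO (-0.91), FSCN1 (-0.88) and FLNA (-0.82), and PALLD rose (0.52). Of 17 genes of myosin II and its regulation, the heavy chain MYH9 fell (-0.70) and 3 rose, led by the phosphatase subunit PPP1CB (0.71) and the GTPase RHOC (0.64). Among 17 focal-adhesion and LIM genes 7 rose, led by TES (1.19), PDLIM1 (0.68) and LIMA1 (0.65), and 3 fell. Of 26 genes of filament ends, turnover and nucleation 7 rose, led by the end-capping TMOD1 (1.04), the actin-sequestering TMSB4X (0.59) and the severing GSN (0.56), and none fell. CALD1, caldesmon, fell by 1.27 as the 1 gene called of 4 smooth-muscle genes tested. Of 6 paralogues of the 10 genes that were tested, MYL12B rose (0.37). None of 6 tested SRF and MRTF genes was called by limma, 1 had an unadjusted p under 0.05, and ELK4 stood at 0.14 and ELK1 at 0.13. WFDC2 (1.07) was the 1 called of 9 epithelial genes.

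On Day3 against Control, after 3 days in gel, 6 of the 10 genes fell and none rose, where 4.64% of all tested genes were called lower and 5.18% higher (9.82% in all). The 6 were TPM2, TAGLN, TPM1, MYL9, ACTN1 and CNN2. The median log2 fold change of the 10 genes was -0.42, beside 0.06 over all tested genes. The calls of TPM1, CNN2, MYL9 and ACTN1 had adjusted p values of 0.0181 to 0.0398 and were lost when any single Control or Day3 library was left out, and those of TPM1, CNN2 and MYL9 also without either Extracted library, which left TPM2 and TAGLN as the calls that every such fit made. ACTB (-0.47) was the 1 called of 3 actin genes. Of 12 cross-linkers 4 fell, led by FLNA (-0.76), SYNPO (-0.73) and FSCN1 (-0.60), and MYH9 (-0.86) was the 1 called of 17 myosin II genes. Among 17 focal-adhesion and LIM genes VCL (-0.66), CSRP1 (-0.57) and PDLIM7 (-0.54) fell and TES (0.51) rose. TMOD1 (0.89) and TMSB4X (0.52) rose among 26 genes of filament ends and turnover. CALD1 fell by 1.20. None of 6 SRF and MRTF genes and none of 6 paralogues was called by limma, with 0 and 1 at an unadjusted p under 0.05.

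Day3 cells were set against Day1 cells for the difference that longer immobilization made. MYL9 was the 1 of 10 genes called and was higher on Day3, where 0.659% of all tested genes were called higher and 1.69% lower (2.35% in all). The call ended without Day1 replicate 1 or without either Day3 library. TAGLN2, lower on Day3 by -0.37 (adjusted p = 0.0607), and TAGLN, at 0.54 (adjusted p = 0.316), did not pass. The median over the 10 genes was 0.06, beside -0.06 over all tested genes.

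Extracted cells against Control showed what differed after recovery from the gel. TAGLN and MYL9 fell and none of the 10 genes rose, where 1.13% of all tested genes were called lower and 0.857% higher (1.99% in all). Both calls were lost when any single Control, Day3 or Extracted library was left out. The other 8 genes had differences between -0.25 for ACTN1 and 0.25 for CNN3. The median over the 10 genes was 0.04, beside -0.02 over all tested genes. In the wider lists ACTN4, the other widely made alpha-actinin, fell (-0.48, adjusted p = 0.0461), and FHL2 (0.94) and TMOD1 (0.82) rose. No actin gene (ACTB 0.15, ACTG1 -0.06), no myosin II gene and no SRF or MRTF gene was called by limma, with 0, 0 and 2 at an unadjusted p under 0.05, and CALD1 stood at -0.23 (adjusted p = 0.467).

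Set directly against Day3, Extracted cells had 4 of the 10 genes higher and none lower, where 6.30% of all tested genes were called higher and 10.8% lower (17.1% in all). The 4 were TPM2 (2.32), TPM1 (0.67), CNN2 (0.52) and TPM4 (0.31). The TPM4 call was lost with the replicate block and, like that of TPM1, with no filter on low values. The TPM1 and TPM4 calls were lost without any single Day3 or Extracted library, the TPM4 call also without either Control library, and the CNN2 call without Day3 replicate 1 or Extracted replicate 2. TAGLN at 0.43 (95% interval -0.13 to 1.00) and MYL9 at -0.17 did not pass. The median over the 10 genes was 0.31, beside -0.07 over all tested genes. In the lists, 1 of 3 actin genes (ACTB, 0.62), 4 of 12 cross-linkers, led by FSCN1 (0.81), 1 of 4 smooth-muscle genes (CALD1, 0.97) and 1 of 6 paralogues (MYL12A, 0.30) were higher in Extracted cells and none lower. Other lists moved both ways. Among 17 focal-adhesion and LIM genes 4 were higher, led by FHL2 (1.12), and 2 lower, led by PDLIM1 (-0.63). Among 26 genes of filament ends and turnover 2 were higher (DIAPH3, 0.69, and DIAPH2, 0.52) and 3 lower, led by CAPG (-0.58). Among 17 myosin II genes MYH9 was higher (0.72) and RHOC lower (-0.30), and among 9 epithelial genes KRT7 was higher (0.63) and WFDC2 (-0.95) and CDH1 (-0.44) lower. None of 6 SRF and MRTF genes was called by limma, with 0 at an unadjusted p under 0.05.

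Treated cells against Control showed what differed in survivors of cisplatin. Of the 10 genes 6 fell (TAGLN, ACTN1, TPM1, CNN3, TAGLN2 and TPM4) and none rose, where 18.2% of all tested genes were called lower and 6.28% higher (24.5% in all). The median over the 10 genes was -0.38, beside -0.15 over all tested genes. TAGLN and ACTN1 were called in every fit that left out a library, whereas the TPM1 and CNN3 calls ended without Treated replicate 2 or either Control library. The TPM4 call ended without Treated replicate 2, either Control library or either Day3 library, and the TAGLN2 call without Control replicate 1. Treated replicate 2, which carries the small-RNA share given above, had the lower value of its pair for 9 of the 10 genes, CNN2 being the exception. How many of all tested genes were lower in that library was not counted, so the 9 are not shown to be particular. ACTG1 fell (-0.53) and the smooth-muscle actin gene ACTA2 rose (0.80, adjusted p = 0.0412, 3.67 TPM against 1.74 TPM in Control) among 3 actin genes. ACTN4 fell by 0.80, and LCP1, a bundler known from blood cells, rose by 0.99 to 7.51 TPM against 3.28 TPM in Control. Of 17 focal-adhesion and LIM genes 7 fell, led by LPP (-1.54), FERMT2 (-0.98) and CSRP1 (-0.94), and 2 rose. Of 26 genes of filament ends, turnover and nucleation 9 fell, led by TMOD2 (-0.75), WDR1 (-0.74) and DIAPH3 (-0.67), and 1 rose. Of 17 myosin II genes 4 fell, led by RHOB (-0.67), CDC42BPA (-0.54) and DAPK3 (-0.45), and CALD1 fell by 0.87. SRF itself fell (-0.85, adjusted p = 0.000698, 11.9 TPM against 22.2 TPM in Control), and ELK3, a ternary complex factor that binds beside SRF, rose (0.91, adjusted p = 0.00233). The epithelial genes MUC16 (1.20), KRT19 (1.04) and KRT18 (0.74) were among 4 of 9 that rose, and 2 of 9 fell.

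The 2 kinds of survivors were compared directly. Treated cells had 5 of the 10 genes lower than Extracted cells and none higher, where 8.87% of all tested genes were called lower and 3.24% higher (12.1% in all). The 5 were CNN3 (-0.79), TPM1 (-0.60), ACTN1 (-0.45), TPM4 (-0.42) and TAGLN2 (-0.36). Under the median of ratios TPM4 (-0.25) and TAGLN2 (-0.19) were not called, and TPM2 (0.58) and MYL9 (0.59) were called higher in Treated cells. TPM2 at 0.42 (adjusted p = 0.146), MYL9 at 0.42 (adjusted p = 0.0598) and TAGLN at -0.57 (adjusted p = 0.161) did not pass, and CNN2 differed by 0.00029. The median over the 10 genes was -0.39, beside -0.13 over all tested genes. All 5 calls were lost without either Extracted library. The calls of TPM1, TAGLN2 and ACTN1 were also lost without Treated replicate 2, and those of TPM1 and TAGLN2 without any Control or Day3 library as well.

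The gel groups (mean of Day1 and Day3) were set against the recovered groups (mean of Extracted and Treated). TAGLN2 was higher in gel (0.59, SE 0.0622, adjusted p = 8.68e-05), and TPM2 (-2.71, SE 0.126, adjusted p = 1.65e-06), CNN2 (-0.65, SE 0.0670, adjusted p = 8.49e-05) and MYL9 (-0.44, SE 0.0911, adjusted p = 0.00341) were lower. These are 1 higher and 3 lower of 10 genes, where 34.0% of all tested genes were called higher and 10.8% lower (44.8% in all). For MYL9 the gel and recovered libraries overlapped, since Day3 (36.6 and 38.5 TPM) lay above Extracted (34.4 and 32.0 TPM). Day1 (18.7 and 23.4 TPM) was the lowest of the groups compared. Treated cells (48.7 and 41.2 TPM), which had not been in gel, were the highest. TPM2 averaged 1.66 TPM over the 4 gel libraries and 16.6 TPM over the 4 recovered libraries, a 10.0-fold difference. The median over the 10 genes was -0.18, beside 0.17 over all tested genes, so that in this comparison the members and the table as a whole lay on opposite sides of 0. TPM1 (-0.27), TAGLN (-0.41), TPM4 (-0.06) and ACTN1 (-0.09) did not pass, but were called lower when the libraries were rescaled by the median of ratios, which brings the median of all genes near 0. Of the lists, 2 of 3 actin genes (ACTA2, -0.64, and ACTB, -0.52) and 2 of 4 smooth-muscle genes (CALD1, -0.69, adjusted p = 0.000781, and ACTA2 again, adjusted p = 0.0145) were lower in gel and none higher. Among 12 cross-linkers 6 were lower, led by FSCN1 (-0.88), SYNPO (-0.72) and FLNA (-0.70), and 1 was higher. The larger counts of higher genes were 13 of 26 genes of filament ends and turnover (2 lower), led by TMOD3 (0.56), 8 of 17 focal-adhesion and LIM genes (5 lower), led by LPP (0.90) and PDLIM1 (0.90), and 5 of 17 myosin II genes (1 lower), led by RHOB (0.61). List medians were 0.24 for filament ends and turnover, 0.30 for focal-adhesion and LIM and 0.14 for myosin II genes, beside 0.17 over all tested genes. The 5 of 17 myosin II genes fell short of the 34.0% of all tested genes called higher. The list genes were not refitted after rescaling. Of 6 paralogues ACTN4 (0.35) and MYL6 (0.32) were higher, and of 6 SRF and MRTF genes SRF was higher (0.55) and ELK3 lower (-0.34). Higher in gel than in recovered libraries did not always mean above Control. SRF averaged 21.7 TPM in gel, 14.7 TPM in recovered and 22.2 TPM in Control libraries. In the same order ACTN4 averaged 1131, 895 and 1385 TPM, and LPP 17.9, 9.35 and 26.3 TPM. The gel means of MYL6, TMOD3, PDLIM1 and RHOB lay above those of Control. Of 9 epithelial genes 2 were higher, led by WFDC2 (0.90), and 3 lower, led by MUC16 (-0.67). The leukocyte marker CD68, the 1 gene of its list that was tested, was lower in gel (-0.97, adjusted p = 0.00545, 1.85 TPM against 4.85 TPM in recovered libraries), and its part in the results was not tested.

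**Figure D5:**
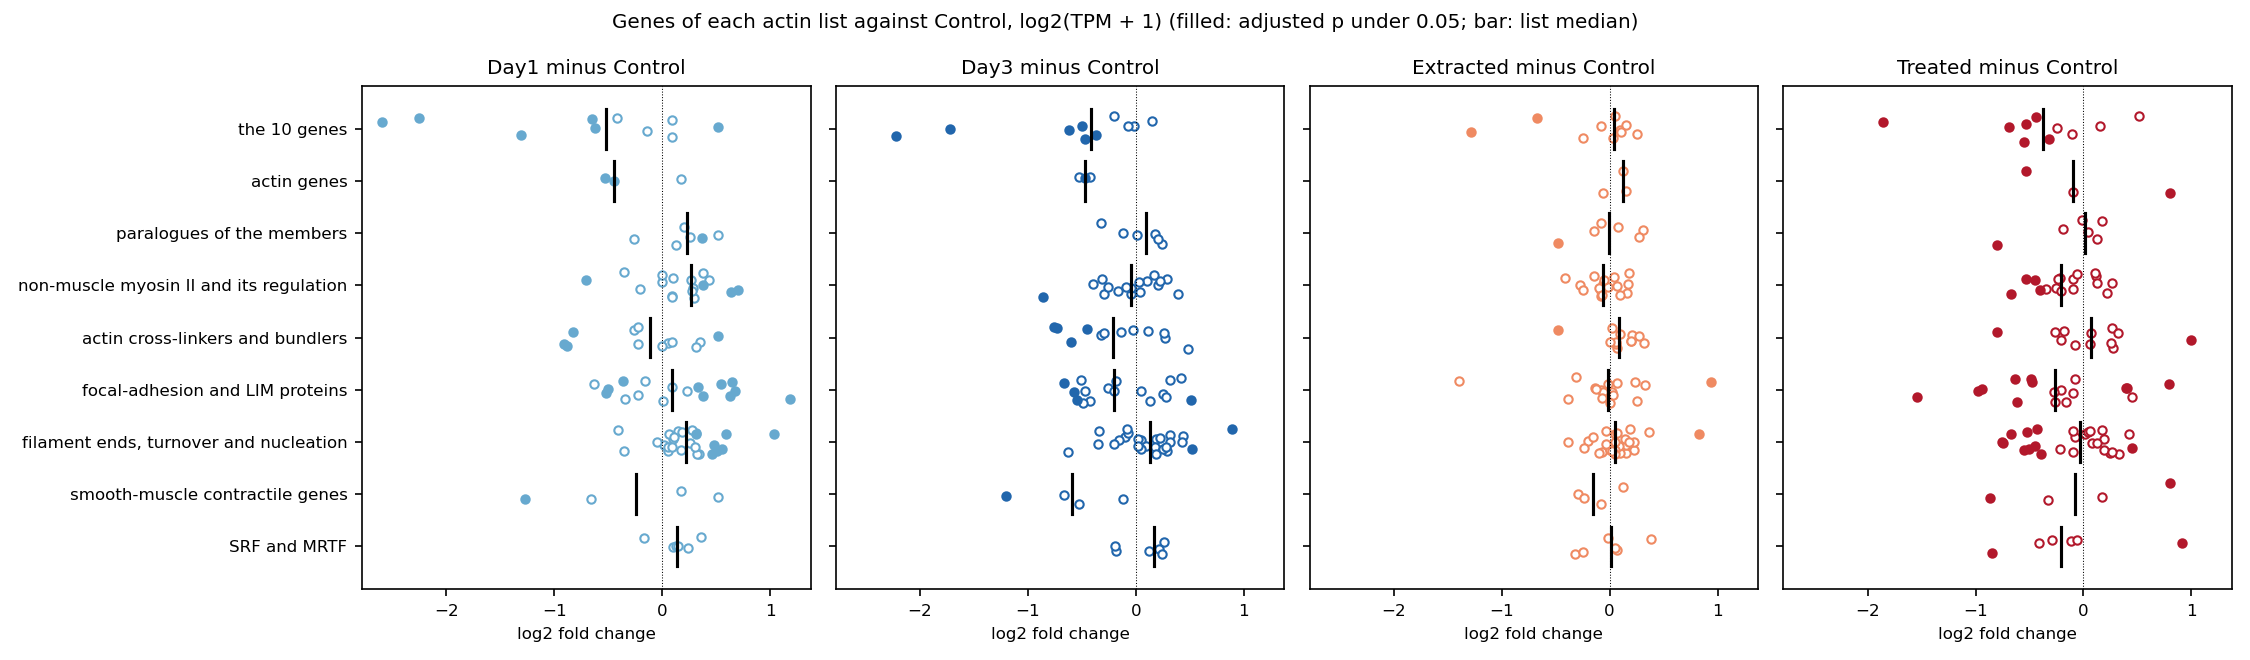
Log2 fold changes against Control of the 10 genes and of 8 lists of actin-related genes, 1 point per tested gene; filled points passed at an adjusted p under 0.05 and bars are list medians. The bars of the 10 genes and of the actin genes lie below -0.4 in both gel groups, while that of filament ends, turnover and nucleation lies above 0 there. That bar lies at 0.22 on Day1 and 0.14 on Day3, where the median over all tested genes was 0.12 and 0.06.

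Profiles over the 10 libraries were compared by the root mean square difference between log2(TPM + 1) values centred on each gene's mean. Among the 10 genes, the closest pair was TPM3 and TPM4 (0.162), followed by TPM1 and ACTN1 (0.177), while TPM2 was at 1.01 or more from each of the other 9. Among 10654 other genes that averaged 5 TPM or more in at least 1 group, the 3 nearest to TPM2 were XIST (0.164), PABPC1L (0.231) and NEAT1 (0.271), against a spread of 1.30 for TPM2 about its own mean. NEAT1, a long non-coding RNA of nuclear paraspeckles, had 240 and 187 TPM in Treated, 132 and 135 TPM in Extracted, 22.5 and 18.5 TPM in Day3, 12.4 and 16.9 TPM in Day1 and 102 and 108 TPM in Control libraries. PABPC1L, a relative of the poly(A)-binding proteins, had 54.9 and 48.0 TPM in Treated, 41.2 and 38.1 TPM in Extracted, 9.94 and 8.47 TPM in Day3, 5.38 and 3.96 TPM in Day1 and 38.2 and 45.2 TPM in Control libraries. NEAT1 and PABPC1L share with TPM2 the low gel libraries and the Treated libraries at the top. XIST shares the low gel libraries, but its Treated libraries overlapped those of Extracted and of Control. The 3 nearest to TPM1 were KIF23 (0.0709), a motor protein of cell division, PLCB4 (0.0752), a phospholipase, and UTP20 (0.0773), a ribosome biogenesis factor, against 0.308 for TPM1 about its mean. The 3 nearest to TAGLN were FST (0.311), the activin-binding follistatin, TMEM155 (0.320) and the mitochondrial pseudogene MTND2P28 (0.341), against 0.805. These likenesses describe 10 points that share libraries and groups.

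The promoters of the 10 genes were searched for 3 sequence elements, since several of the genes fell together in gel. RefSeq promoters of GRCh38.p14 matched 8 of the 10 genes, with 18 annotated starts among them. TAGLN and MYL9 had no entry. Searched on both strands over the 250 bases before the start were the CArG box of SRF, the TEAD motif GGAATG, which reads CATTCC on the opposite strand, and TATAAA, which reads TTTATA there, none of which overlapped another in the matches found. The CArG box stood in 1 start each of CNN2, TPM4 and ACTN1, 3 of the 18 starts. Of 35116 promoters of that length, 1.16% hold it. CNN2 and ACTN1 were called lower than Control on Day1 and Day3, and TPM4 was called on neither day in the fit reported. CATTCC stood in a start each of ACTN1 and CNN3, where 11.9% of promoters hold the motif, and TTTATA in that of ACTN1, where 10.7% do. The stretches of these 3 promoters that lie outside annotated exons are shown from 5′ to 3′ on the gene's strand with the matches in capitals, followed by that of TPM2, which had the largest fall in gel and none of the 3 elements at its 2 starts.
CNN2: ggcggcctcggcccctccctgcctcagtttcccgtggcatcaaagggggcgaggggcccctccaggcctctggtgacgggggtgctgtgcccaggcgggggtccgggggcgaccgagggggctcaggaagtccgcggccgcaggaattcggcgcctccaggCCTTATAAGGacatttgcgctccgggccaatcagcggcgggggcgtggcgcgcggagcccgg
TPM4: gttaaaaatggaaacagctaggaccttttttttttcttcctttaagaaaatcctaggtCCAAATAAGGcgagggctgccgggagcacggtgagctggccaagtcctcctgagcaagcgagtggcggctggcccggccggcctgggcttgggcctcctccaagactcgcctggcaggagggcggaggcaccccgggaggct
ACTN1: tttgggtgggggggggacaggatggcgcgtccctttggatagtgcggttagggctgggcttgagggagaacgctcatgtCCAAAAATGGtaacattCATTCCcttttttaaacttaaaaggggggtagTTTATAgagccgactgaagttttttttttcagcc
TPM2: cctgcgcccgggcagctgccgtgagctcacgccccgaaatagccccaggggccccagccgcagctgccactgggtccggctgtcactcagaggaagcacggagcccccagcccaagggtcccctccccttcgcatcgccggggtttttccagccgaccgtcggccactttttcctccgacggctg
The CNN2 stretch is chr19:1026358-1026580 on the plus strand, with CCTTATAAGG beginning 89 bases before the start. The TPM4 stretch is chr19:16067307-16067506 on the plus strand, with CCAAATAAGG beginning 173 bases before the first of 3 starts. The ACTN1 stretch is chr14:68977655-68977816 on the minus strand, with CCAAAAATGG beginning 171 bases, CATTCC 154 bases and TTTATA 122 bases before the third of 4 starts. The TPM2 stretch is chr9:35690122-35690306 on the minus strand, before the first of 2 starts. A match of letters is not a bound site, and which of the starts was used in these cells was not analysed here.

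By the annotation of GENCODE 29 on GRCh38, the tropomyosin genes lie apart, TPM1 (ENSG00000140416) on chromosome 15 from 63042632 to 63071915, TPM2 (ENSG00000198467) on chromosome 9 from 35681992 to 35690121, TPM3 (ENSG00000143549) on chromosome 1 from 154155304 to 154194648 and TPM4 (ENSG00000167460) on chromosome 19 from 16067021 to 16103005. TAGLN (ENSG00000149591) lies on chromosome 11 from 117199321 to 117204782, TAGLN2 (ENSG00000158710) on chromosome 1 from 159918107 to 159925732, CNN2 (ENSG00000064666) on chromosome 19 from 1026581 to 1039068 and CNN3 (ENSG00000117519) on chromosome 1 from 94896949 to 94927278. MYL9 (ENSG00000101335) lies on chromosome 20 from 36541484 to 36551447 and ACTN1 (ENSG00000072110) on chromosome 14 from 68874143 to 68979440. Of 22 entries picked by symbol as pseudogenes of these genes, 21 stayed under 2 TPM in every library. TPM3P9 ranged from 3.25 to 5.69 TPM, beside 354 to 512 TPM for TPM3, and reads that both could have taken cannot be told apart here. Apart from PCSK7 in TAGLN, the overlapping gene with the highest value was HMGN1P3 within ACTN1, at no more than 1.76 TPM.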

How the data were processed

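RNA of 10 OVCAR-3 libraries was sequenced in 5 groups of 2 replicate libraries. The authors deposited TPM per gene, made with Trimmomatic, STAR and Cufflinks on GRCh38, per the submitters' processing notes. For versions, annotation release, strand setting and library selection, the sources used here give nothing. Depth is unknown, so no counting interval can be given, and p-values measure the spread between replicate libraries. The table held 58313 entries and 349 blank lines, and entries of 1 identifier were summed to 58222 genes, of which GENCODE 29 held 57959.

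The 15167 genes at 1 TPM or more in at least 2 libraries were fitted on log2(TPM + 1) with limma 3.58.1 (R 4.3.3), 1 coefficient for each group and a mean-variance trend. All 10 libraries entered, which left 5 residual degrees of freedom. Calls are two-sided and need an adjusted p under 0.05 (Benjamini-Hochberg over all tested genes of the comparison). Fold changes are first group minus second. Medians of lists are descriptions. Groups of 2 allow no exact permutation test below a p of 0.05 and no test for a deviating replicate.

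The 10 genes and the lists were chosen with earlier results of these data known. Named were all 10 genes, per list up to 3 called genes with the largest change or, with none called, the 2 most abundant, and the 3 genes with the profile nearest to TPM2, TPM1 and TAGLN. PALLD and the markers given by range were named after their values were seen. The fit was repeated with each library left out, with a replicate block, with the compared groups alone, without mitochondrial and small-RNA genes, after median-of-ratios rescaling, with a filter at 5 TPM or none, and with 0.1 as the pseudocount. RefSeq promoters of GRCh38.p14 were searched with Python 3.11.15, pandas 2.3.3 and NumPy 2.4.6, and plots were drawn with Matplotlib 3.10.9.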

Additional observations from a re-analysis of the deposited data

Results flagged for a closer look

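Whether the effects of 2 groups against the shared Control differ is tested by the direct comparison of those groups. Between Day3 and Day1 that comparison called 1 of the 10 genes, where 2.35% of all tested genes were called. Between Treated and Extracted cells it called 5 of the 10 genes, where 12.1% of all tested genes were called. MYL9 was lower than Control by less on Day3 than on Day1, with a difference between the effects of 0.81 (adjusted p = 0.0158). Between Treated and Extracted cells the effects differed for CNN3 by -0.79 (adjusted p = 0.0127), for TPM1 by -0.60 (adjusted p = 0.0316), for ACTN1 by -0.45 (adjusted p = 0.0202), for TPM4 by -0.42 (adjusted p = 0.0185) and for TAGLN2 by -0.36 (adjusted p = 0.0305), each lower in Treated cells. Treated and Extracted libraries did not overlap for 8 of the 10 genes, these 5 and others that were not called. The share over all tested genes was not computed, so the lack of overlap adds nothing to the calls. The share of small-RNA genes in Treated replicate 2 (14.4%) moves with the lower value of each Treated pair, and its part in these differences was not tested. After rescaling by the median of ratios CNN3 (-0.62), TPM1 (-0.43) and ACTN1 (-0.28) were still called, and TPM4 (-0.25) and TAGLN2 (-0.19) were not.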

How the results depend on the processing

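On Day1 against Control the calls of TPM2, TAGLN, TAGLN2, CNN2, MYL9 and ACTN1 held in all 7 alternative fits and without each library in turn, as did those of TPM2 and TAGLN on Day3, TAGLN and ACTN1 in Treated cells, TPM2 between Extracted and Day3, and TPM2, TAGLN2, CNN2 and MYL9 between gel and recovered groups. With no filter on low values 3 of the 10 genes were called on Day3 against Control, 0 between Day3 and Day1, 0 in Extracted against Control, 2 between Extracted and Day3 and 2 between Treated and Extracted. In Treated against Control the calls of TPM1 and CNN3 were lost with no filter (limma adjusted p = 0.0897 and 0.0923). With the compared groups alone the counts were 0 between Day3 and Day1, 3 in Treated against Control, 7 between Extracted and Day3 and 0 between Treated and Extracted. A pseudocount of 0.1 left 1 call in Extracted against Control, and a filter at 5 TPM gave 2 between Day3 and Day1. Rescaling by the median of ratios gave 8 calls on Day1, 6 on Day3, 2 in Extracted and 5 in Treated against Control, 1 between Day3 and Day1, 6 between Extracted and Day3, 5 between Treated and Extracted and 8 between gel and recovered groups. Removal of mitochondrial and small-RNA genes gave 8, 7, 3, 7, 1, 6, 5 and 8 in the same order. The calls gained were TPM1 and TPM4 on Day1 under both, TPM4 on Day3 and ACTN1 in Extracted cells with those genes removed, TPM2 in Treated cells and CNN3 and ACTN1 between Extracted and Day3 under both, and, between Treated and Extracted, MYL9 under both and TPM2 under the median of ratios. The calls lost were TPM4 and TAGLN2 in Treated cells and TPM4 between Treated and Extracted under the median of ratios, and TAGLN2 between Treated and Extracted under both. The cause of these shifts was not tested. Counts of calls in this section are given without the share of all tested genes called in the same fit. A general gain or loss of calls therefore cannot be told from one particular to these 10 genes.

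Without each library in turn the counts were 6 to 7 on Day1, 2 to 6 on Day3, 0 to 2 in Extracted and 2 to 7 in Treated against Control, 0 to 2 between Day3 and Day1, 1 to 6 between Extracted and Day3, 0 to 6 between Treated and Extracted and 4 to 6 between gel and recovered groups. The lone library of a group was then assumed to vary like the other groups.

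No pairing of the samples by replicate number was seen, since deviations of same-numbered libraries correlated at -0.02 to 0.09. These correlations do not tell how the samples were handled. With the replicate block the counts were 6 on Day1, 6 on Day3, 2 in Extracted and 6 in Treated against Control, 1 between Day3 and Day1, 3 between Extracted and Day3, 5 between Treated and Extracted and 5 between gel and recovered groups. The block ended the call of TPM4 between Extracted and Day3 and added that of TPM1 between gel and recovered groups.

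Signs turned only for small differences that did not pass in the fit reported. Under the median of ratios these were TPM3 (-0.050) and CNN3 (-0.055) on Day1, TPM4 between Day3 and Day1 (0.012), TPM3 in Treated against Control (0.070) and against Extracted (0.029), and TPM3 (-0.12) and CNN3 (-0.051) between gel and recovered groups. With mitochondrial and small-RNA genes removed they were TPM3 (-0.11) and CNN3 (-0.12) on Day1, TPM4 between Day3 and Day1 (0.0013), TPM1 (-0.013) and TPM3 (-0.034) in Extracted against Control, and TPM3 (-0.082) and CNN3 (-0.00787) between gel and recovered groups. Without 1 library at a time, TPM3 spanned -0.065 to 0.029 on Day3, -0.028 to 0.095 in Extracted and -0.37 to 0.16 in Treated against Control, -0.011 to 0.11 between Extracted and Day3, -0.41 to 0.12 between Treated and Extracted and -0.056 to 0.21 between gel and recovered groups. CNN3 spanned -0.036 to 0.21 on Day1 and -0.19 to 0.056 on Day3, TPM1 -0.019 to 0.13 and TPM2 -0.011 to 0.20 in Extracted against Control, and CNN2 -0.072 to 0.073 between Treated and Extracted.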
